A study of Schizosaccharomyces pombe with 10 samples.

Results

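The 8 genes described here encode ribonucleotide reductase of the fission yeast Schizosaccharomyces pombe, its small protein inhibitor and parts of the machinery that destroys that inhibitor. They were taken by name, as the rows of the count table with their 8 systematic IDs, out of 6661 features in all. The names were chosen with earlier results of these data known. They are cdc22 (SPAC1F7.05), suc22 (SPBC25D12.04), spd1 (SPAC29B12.03), cdt2 (SPAC17H9.19c), ddb1 (SPAC17H9.10c), pcu4 (SPAC3A11.08, called cul4 in the reference annotation), csn1 (SPBC215.03c) and csn2 (SPAPB17E12.04c). All 8 passed the filter on low counts. RNA was sequenced from 10 libraries of strain PT286, whose untreated libraries are titled WT and for which no further genotype is given. Cells were grown in YES, a rich medium, at 30 °C for 16 h, and the medium was then changed to add an agent for 8 h. The agents were 20 µM camptothecin, which traps topoisomerase I on DNA, 10 mM hydroxyurea, which inhibits ribonucleotide reductase itself, 0.02 % methyl methanesulfonate (MMS), which alkylates DNA, and 5 µg/mL phleomycin, which breaks DNA strands. The fifth group was untreated, and the labels do not say whether its medium was changed or whether it was grown on over those 8 h. There were 2 libraries in each group, with no statement that they came from separate cultures, so the spread between them may be technical.

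Ribonucleotide reductase makes the deoxynucleotides of DNA by reducing ribonucleotides. The enzyme joins large subunits, encoded by cdc22, to small subunits, encoded by suc22, and in fission yeast the protein Spd1 holds it back outside S phase. In S phase and after DNA damage Spd1 is marked with ubiquitin by a cullin ligase in which Cdt2 recognises the substrate, Ddb1 links Cdt2 to the cullin and Pcu4 is the cullin scaffold. The COP9 signalosome, of which Csn1 and Csn2 are subunits, removes the small modifier NEDD8 from cullins and is needed for the destruction of Spd1. Transcription of cdc22 and cdt2 is known to be driven at the start of S phase by MBF, a factor that binds ACGCGT boxes.

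The bases just upstream of the transcript starts are shown to mark where these boxes lie. They are present there in cdc22 and cdt2 and absent in suc22 and spd1. Any part of the boxes in the changes described below was not tested. The 150 bases before each annotated start are printed 5′ to 3′ on the gene's strand, from RefSeq assembly ASM294v3, with every ACGCGT in capitals. The build behind the counts is not given in the sources used here, and these coordinates belong to the reference alone.
cdc22, I:4226820-4226969, + strand: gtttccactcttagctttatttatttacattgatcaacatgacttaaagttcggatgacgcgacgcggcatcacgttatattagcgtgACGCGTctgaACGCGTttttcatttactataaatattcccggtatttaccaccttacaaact
cdt2, I:2035705-2035854, - strand: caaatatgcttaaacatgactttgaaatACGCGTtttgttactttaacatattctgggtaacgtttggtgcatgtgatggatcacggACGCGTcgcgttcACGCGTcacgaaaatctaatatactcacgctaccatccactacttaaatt
suc22, II:3721473-3721622, + strand: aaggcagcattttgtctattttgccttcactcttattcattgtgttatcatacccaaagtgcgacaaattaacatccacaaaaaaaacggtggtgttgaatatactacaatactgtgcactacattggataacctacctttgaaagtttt
spd1, I:5412293-5412442, + strand: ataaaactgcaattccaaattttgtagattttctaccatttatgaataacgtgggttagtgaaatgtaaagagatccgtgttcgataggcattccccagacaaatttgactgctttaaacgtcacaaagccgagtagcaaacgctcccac

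In cdc22 the boxes began 62 and 52 bases before the annotated start, and in cdt2 they began 122, 63 and 50 bases before it. The nearest pair of each gene therefore lay at almost the same distance from the start. Further upstream, within 600 bases, cdc22 had 1 more box, at 434 bases, and cdt2 had 1 more, at 329 bases. The box is its own reverse complement, so a match counts for both strands. Of 5110 protein-coding genes of the count table with a full window of 300 bases upstream, 2.9 % had at least 1 ACGCGT, 0.294 % (15 genes) at least 2, and 0.0391 % (2 genes, cdt2 among them) at least 3. A match is a stretch of letters and not a shown binding site. The only box within 600 bases of suc22 began 575 bases upstream, and it is shown as the single match of a gene that otherwise has none.
suc22, II:3721023-3721072, + strand: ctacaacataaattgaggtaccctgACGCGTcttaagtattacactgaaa
The spd1 window held 1 TGACGT, the core of the site of the stress factor Atf1, as its complement ACGTCA beginning 32 bases upstream, a match that 6.03 % of the 300-base windows have on either strand. The windows of ddb1, pcu4, csn1 and csn2 held neither motif within 600 bases.

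**Figure D1:**
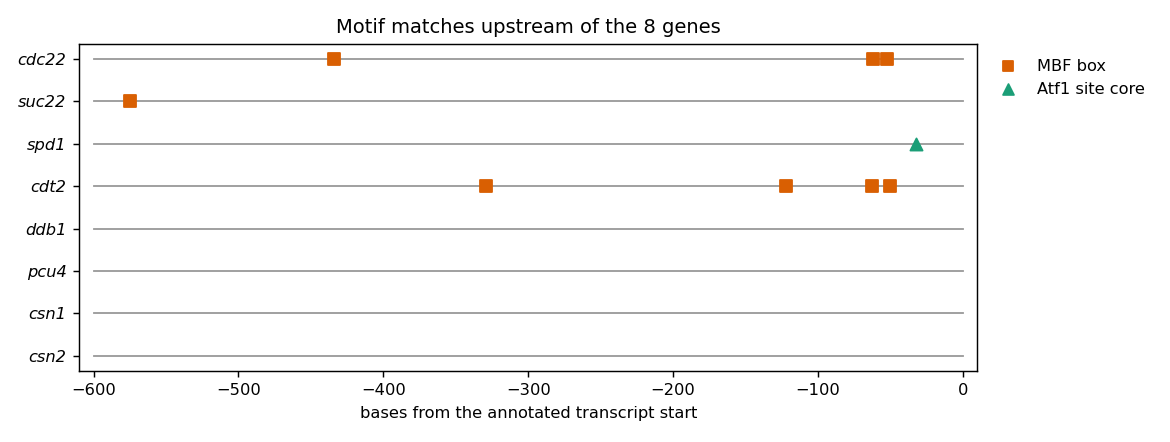
Motif matches in the 600 bases before the annotated transcript start of each of the 8 genes, with the distance from the start in bases on the x axis, squares for the MBF box ACGCGT and triangles for the Atf1 core TGACGT on either strand. Boxes cluster within 122 bases of the start in cdc22 and cdt2, and suc22 has a single box at 575 bases.

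Library totals ran from 37301356 to 48598533 counts. Levels are given as CPM, counts divided by library size with TMM scaling factors,, and changes as log2 fold changes ± SE, treated over untreated unless stated. Genes are said to have risen or fallen where the Benjamini-Hochberg adjusted p of edgeR's quasi-likelihood test over 5734 tested features was under 0.05. The 4 comparisons with untreated cells share the same untreated libraries. The threshold was passed by 71.2 % of all tested features under camptothecin, 79.1 % under hydroxyurea, 80.4 % under MMS and 82.9 % under phleomycin. Of the 8 genes 6 passed under camptothecin, 6 under hydroxyurea, 6 under MMS and 7 under phleomycin, shares near these backgrounds, so the size and direction of each change carry the description. Under camptothecin 6 rose and 0 fell, where 35.2 % of all features rose and 35.9 % fell. Under hydroxyurea 4 rose and 2 fell (all features 40.3 and 38.8 %), while 1 (spd1) fell with upper-quartile factors or library totals and 4 fell with quantile normalization. Under MMS 4 rose and 2 fell (39.5 and 40.9 %), and under phleomycin 4 rose and 3 fell (42.2 and 40.7 %), and 1 (pcu4) fell with upper-quartile factors. By at least 2-fold, 7.85, 13.6, 17.5 and 22 % of all features changed under camptothecin, hydroxyurea, MMS and phleomycin, against 0, 1, 2 and 1 of the 8 genes. The median log2 fold change of the 8 genes was 0.22, 0.18, 0.055 and 0.23 in the same order, and that of all tested features 0.0042, 0.023, 0.0018 and 0.021. Of the features called under hydroxyurea 50.9 % rose, but 67.7 % with library totals alone and 65.6 % with upper-quartile factors, which moved the median of all features by 0.18 and 0.16. Under phleomycin 50.9 % rose, and 63.5 % with upper-quartile factors, which moved that median by 0.20. In RNA from whole cultures, a larger share of cells in S phase and more RNA per cell cannot be told apart.

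**Figure D2:**
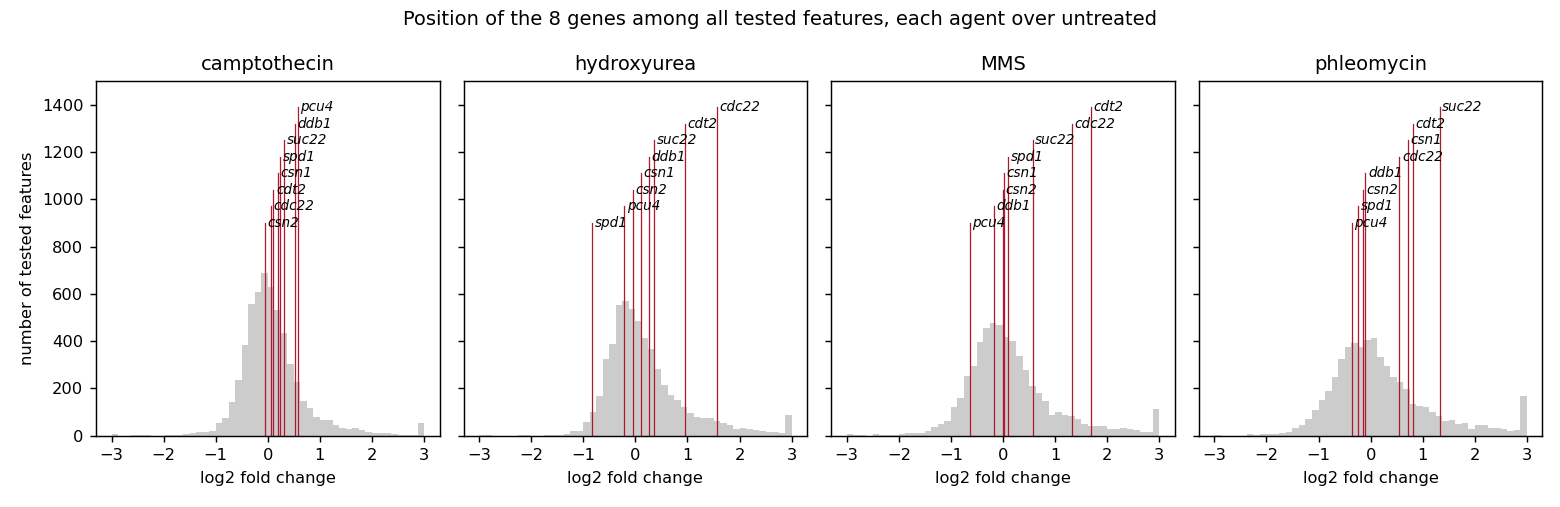
Histograms of the log2 fold change of all 5734 tested features under each agent over untreated (bars, number of features on the y axis, with changes past 3 in the outermost bins), and the 8 genes as labelled vertical lines whose height has no meaning. Under hydroxyurea and MMS cdc22 and cdt2 lie on the right flank, under phleomycin suc22 does, and under camptothecin the 8 genes lie between -0.048 and 0.58.

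The large subunit gene cdc22 was highest under hydroxyurea and MMS. Its level was 494 and 498 CPM in the untreated libraries, 509 and 528 after camptothecin, 1459 and 1477 after hydroxyurea, 1231 and 1261 after MMS, and 725 and 729 after phleomycin. No library of any agent fell to the untreated level, and no 2 groups overlapped. The gene rose 2.96-fold under hydroxyurea (log2 fold change 1.57 ± 0.018, adjusted p = 1.56e-60) and 2.51-fold under MMS (1.33 ± 0.018, adjusted p = 2.46e-57). Only 7.13 % of tested features changed as much or more under hydroxyurea, and 11.5 % under MMS. Under phleomycin the rise was smaller (0.55 ± 0.019, adjusted p = 3.24e-36), and 46.6 % of features changed at least as much. With camptothecin cdc22 moved by 0.063 ± 0.019 (adjusted p = 0.00265), and this call was lost without the second camptothecin library (0.036, adjusted p = 0.16) and with a replicate block (adjusted p = 0.114). From the lowest level to the highest the order was untreated, camptothecin, phleomycin, MMS and hydroxyurea. Each neighbouring pair above camptothecin differed: phleomycin over camptothecin by 0.49 ± 0.019, MMS over phleomycin by 0.78 ± 0.018 and hydroxyurea over MMS by 0.24 ± 0.018.

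The small subunit gene suc22 had another order, with phleomycin at the top. It stood at 717 CPM in both untreated libraries, 889 and 902 after camptothecin, 919 and 923 after hydroxyurea, 1072 and 1058 after MMS, and 1803 and 1795 after phleomycin. The phleomycin libraries stood far above the rest, and those of camptothecin and hydroxyurea lay close together. The rise was 2.51-fold under phleomycin (1.33 ± 0.017, adjusted p = 2.24e-59), a size that 14.1 % of tested features reached. It was 0.57 ± 0.017 under MMS (adjusted p = 4.09e-39), 0.36 ± 0.017 under hydroxyurea (adjusted p = 2.15e-28) and 0.32 ± 0.017 under camptothecin (adjusted p = 1.1e-25). Changes of the last 2 sizes were common, with 50.4 % of features under hydroxyurea and 46.6 % under camptothecin moving as much. Hydroxyurea and camptothecin differed by 0.041 ± 0.017 (adjusted p = 0.0254), a call lost with RLE size factors (0.023, adjusted p = 0.21) and in DESeq2 (0.024, adjusted p = 0.2). It was also lost without the first camptothecin library (0.029), the first hydroxyurea library (0.044) and the second hydroxyurea library (0.038), and with no filter (0.014, adjusted p = 0.499) or with a replicate block. The gene is known to give transcripts of more than 1 length, which the table counts together.

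**Figure D3:**
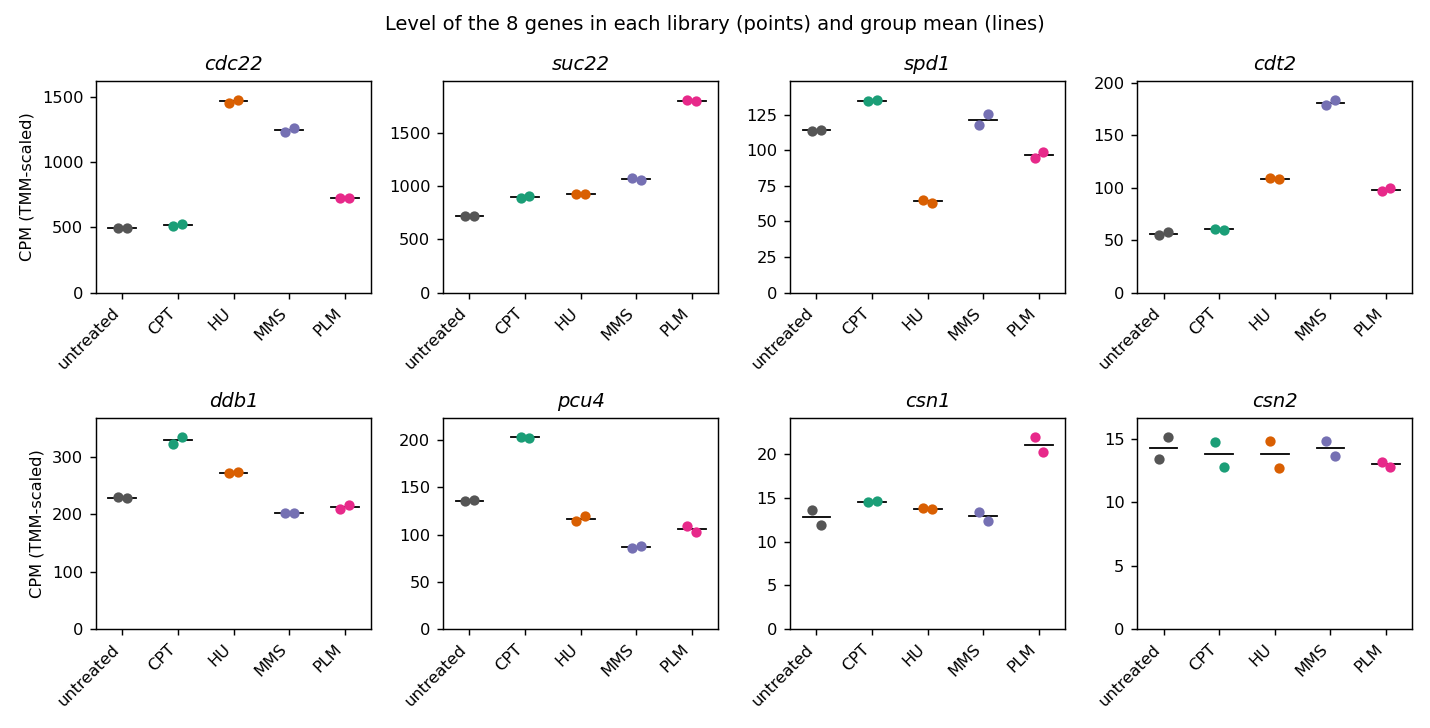
CPM of each of the 8 genes (y axis, starting at 0) in the 10 libraries, 2 points per group, with the group mean as a line; CPT is camptothecin, HU hydroxyurea and PLM phleomycin. The large subunit gene cdc22 peaks under hydroxyurea at 1459 and 1477 CPM, suc22 under phleomycin at 1803 and 1795, cdt2 under MMS at 179 and 183, and pcu4 and ddb1 under camptothecin.

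The subunits thus changed in unlike proportion, which a ratio within each library shows without any scaling between libraries. Counts per base of cdc22 over those of suc22 came to 0.37 and 0.372 in the untreated libraries and to 0.307 and 0.314 after camptothecin. They came to 0.851 and 0.858 after hydroxyurea, 0.615 and 0.639 after MMS, and 0.216 and 0.218 after phleomycin. Transcripts of the small subunit gene outnumbered those of the large in every library by this measure. Hydroxyurea raised the ratio 2.3-fold and MMS 1.69-fold, while under phleomycin it was 0.584 of the untreated value and under camptothecin 0.837. In each case the 2 libraries of a group lay closer to each other than to any library of another group. In the direct comparison phleomycin minus hydroxyurea, in which 71.2 % of features passed, cdc22 fell (-1.01 ± 0.018, adjusted p = 8.26e-51) and suc22 rose (0.97 ± 0.017, adjusted p = 1.71e-51). Phleomycin minus MMS (72 % of features passed) showed the same opposition, at -0.78 ± 0.018 for cdc22 and 0.76 ± 0.017 for suc22.

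The inhibitor gene spd1 was lowest under hydroxyurea. It stood at 114 and 114 CPM in the untreated libraries, 135 and 135 after camptothecin, 65.2 and 62.9 after hydroxyurea, 118 and 125 after MMS, and 94.7 and 98.7 after phleomycin. The hydroxyurea libraries lay well below all others, and those of camptothecin were the highest. Under hydroxyurea spd1 fell 1.78-fold (-0.83 ± 0.039, adjusted p = 2.07e-28). It ranked 5574 of 5734 features from the highest log2 fold change, and 18.97 % of features changed at least as much in either direction. Camptothecin raised it by 0.24 ± 0.037 (adjusted p = 3.33e-08). Under phleomycin it fell by 0.24 ± 0.038 (adjusted p = 6.21e-08), a call lost with upper-quartile factors (-0.038) and quantile normalization (-0.066). With MMS it moved by 0.093 ± 0.037 (adjusted p = 0.0195), which did not pass in DESeq2 (adjusted p = 0.0523) or without the first untreated library (0.089), the second (0.095) or the second MMS library (0.048). Between agents, spd1 was lower with hydroxyurea than with camptothecin by 2.11-fold (-1.07 ± 0.039) and higher with MMS than with hydroxyurea by 1.9-fold (0.92 ± 0.039).

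Set against the subunits, the inhibitor's transcript was scarcer under hydroxyurea, MMS and phleomycin than in untreated cells. Counts per base of cdc22 over spd1 were 1.25 and 1.25 in the untreated libraries, 1.08 and 1.12 after camptothecin, 6.43 and 6.74 after hydroxyurea, 3 and 2.89 after MMS, and 2.2 and 2.12 after phleomycin. The mean under hydroxyurea was 5.27-fold the untreated one. For suc22 over spd1 the values were 3.38 and 3.36 untreated, 3.54 and 3.58 after camptothecin, 7.56 and 7.86 after hydroxyurea, 4.87 and 4.53 after MMS, and 10.2 and 9.75 after phleomycin. Here phleomycin, at 2.96-fold, exceeded hydroxyurea, at 2.29-fold. No library of any agent overlapped the untreated ones in either ratio. Camptothecin lay below them for cdc22 over spd1 and slightly above them for suc22 over spd1.

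**Figure D4:**
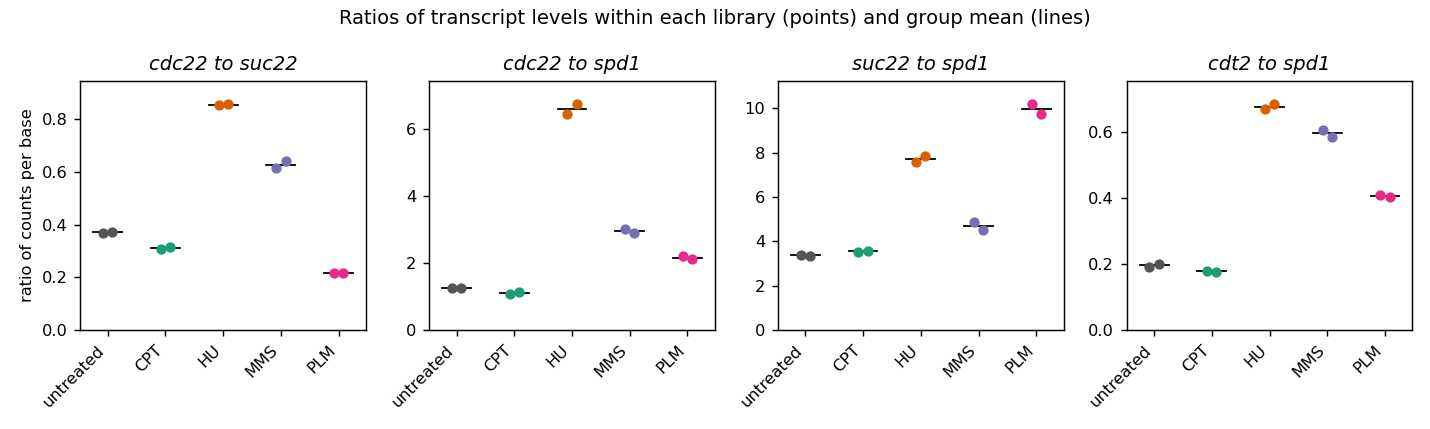
Ratios of counts per base of annotated exon between pairs of genes within each library (y axis from 0, 2 points per group, mean as a line, agents abbreviated CPT for camptothecin, HU for hydroxyurea and PLM for phleomycin). The cdc22 to suc22 ratio is highest under hydroxyurea and lowest under phleomycin, and all 3 ratios over spd1 are higher under hydroxyurea, MMS and phleomycin than in untreated cells.

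Of the ligase genes only that of the substrate receptor, cdt2, rose by 2-fold or more. Its level was 54.7 and 57.3 CPM in untreated cells, 60.8 and 60.0 after camptothecin, 109 and 108 after hydroxyurea, 179 and 183 after MMS, and 96.9 and 99.2 after phleomycin. The MMS libraries were the highest and no agent's libraries overlapped the untreated ones. It rose 3.23-fold under MMS (1.69 ± 0.039, adjusted p = 2.14e-45), where 7.74 % of features changed as much. Under hydroxyurea it rose 1.94-fold (0.95 ± 0.040, adjusted p = 4.63e-31) and under phleomycin 1.75-fold (0.81 ± 0.040, adjusted p = 1.48e-27). Under camptothecin the change was 0.11 ± 0.042 (adjusted p = 0.0173), and it did not pass without the first untreated library (0.077, adjusted p = 0.18) or the first camptothecin library (0.098, adjusted p = 0.097). Hydroxyurea and MMS reversed the order that they had for cdc22. For MMS minus hydroxyurea (73.6 % of features passed), cdt2 was higher by 0.74 ± 0.036 (adjusted p = 1.28e-27) while cdc22 was lower by 0.24 ± 0.018 (adjusted p = 5.8e-19). Within libraries, counts per base of cdt2 over spd1 rose from 0.193 and 0.201 in untreated cells to 0.67 and 0.687 after hydroxyurea, 0.608 and 0.587 after MMS and 0.41 and 0.403 after phleomycin. With camptothecin they were 0.181 and 0.178.

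The adaptor gene ddb1 and the cullin gene pcu4 moved unlike cdt2. The level of ddb1 was 229 and 227.5 CPM in untreated cells, 322 and 334 after camptothecin, 271 and 272 after hydroxyurea, 201 and 202.5 after MMS, and 209 and 216 after phleomycin. That of pcu4 was 135 and 136 CPM untreated, 203 and 202 after camptothecin, 114 and 119.7 after hydroxyurea, 86.2 and 88.0 after MMS, and 108.5 and 103 after phleomycin. Both genes were highest with camptothecin and lowest with MMS. Camptothecin raised ddb1 1.44-fold (0.52 ± 0.025, adjusted p = 5.25e-28) and pcu4 1.49-fold (0.58 ± 0.033, adjusted p = 5.78e-24), the largest rises of the 8 genes under that agent. Under MMS ddb1 fell by 0.18 ± 0.026 (adjusted p = 9.76e-09) and pcu4 by 0.64 ± 0.036 (adjusted p = 5.84e-25). Hydroxyurea separated them, with ddb1 up by 0.25 ± 0.025 (adjusted p = 6.49e-14) and pcu4 down by 0.22 ± 0.034 (adjusted p = 8.55e-08), though the latter did not pass with upper-quartile factors (-0.055) or library totals (-0.033). Under phleomycin pcu4 fell by 0.36 ± 0.035 (adjusted p = 1.07e-14). There ddb1 was at -0.10 ± 0.026 (adjusted p = 0.000275), a direction that flipped with upper-quartile factors (0.098) and quantile normalization (0.11) and did not pass with library totals (-0.018) or the stricter filter (-0.0081). MMS minus camptothecin (76.9 % of features passed) held the widest gaps between agents in these genes, with pcu4 lower by 2.33-fold (-1.22 ± 0.035) and ddb1 by 1.62-fold (-0.70 ± 0.025), while cdt2 was higher by 3-fold (1.58 ± 0.038).

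As parts of a single ligase, the transcripts therefore stood in different proportions from agent to agent. Counts per base of cdt2 over ddb1 were 0.455 and 0.48 in untreated cells and 1.69 and 1.73 after MMS, a 3.66-fold difference. They were 0.36 and 0.342 after camptothecin, 0.765 and 0.754 after hydroxyurea, and 0.882 and 0.876 after phleomycin. By this measure the cdt2 transcript was scarcer than that of ddb1 in every library except those with MMS. Counts per base of pcu4 over ddb1 kept a narrower range. They were 0.778 and 0.79 in untreated cells, 0.831 and 0.797 after camptothecin, 0.554 and 0.579 after hydroxyurea, 0.564 and 0.572 after MMS, and 0.683 and 0.626 after phleomycin. Camptothecin and untreated libraries stood above those of the other 3 agents.

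The signalosome genes csn1 and csn2 had the lowest counts per base of the set. In untreated cells they had 6.08 and 7.91 CPM per kb, where the median of 4704 tested protein-coding genes was 44.8. For comparison suc22 had a mean of 494.5 CPM per kb, cdc22 183, spd1 147, ddb1 61.8, pcu4 48.4 and cdt2 28.9. The csn1 gene had 13.6 and 11.9 CPM untreated, 14.55 and 14.6 after camptothecin, 13.8 and 13.7 after hydroxyurea, 13.4 and 12.4 after MMS, and 21.95 and 20.2 after phleomycin. The phleomycin libraries stood well above the rest, which lay between 11.9 and 14.6, and the rise was 1.65-fold (0.72 ± 0.098, adjusted p = 1.36e-09). The other agents gave 0.19 ± 0.10 (camptothecin, adjusted p = 0.0868), 0.11 ± 0.10 (hydroxyurea, adjusted p = 0.314) and 0.017 ± 0.10 (MMS, adjusted p = 0.883). The first of these passed without the first untreated library (0.29, adjusted p = 0.034). The second passed upward with library totals (0.29) and upper-quartile factors (0.27) and downward with quantile normalization (-0.29), and the third passed downward with the last of these (-0.22). For csn2 the 10 libraries ran from 12.7 to 15.2 CPM with all groups near each other, and log2 fold changes of -0.048 ± 0.11, -0.052 ± 0.11, -0.0052 ± 0.11 and -0.14 ± 0.11 under camptothecin, hydroxyurea, MMS and phleomycin. None passed in the main test, while under quantile normalization csn2 passed downward with hydroxyurea (-0.46) and phleomycin (-0.55).

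The csn1 values are uncertain because of overlap with another gene, and the csn2 values are also to be read as uncertain. Whether the low levels of these genes reflect weak expression or reads left uncounted was not tested. In the reference annotation 76.4 % of the csn1 span is shared with pfd5, a prefoldin gene on the opposite strand that is listed at 0 counts in all 10 libraries. Whether counting used the strand is unknown, so reads of such pairs cannot be told apart. For pcu4 the overlap was 21.1 %, with the non-coding SPNCRNA.909 at 142 to 309 counts, and for cdt2 it was 9.71 %, with a gene listed at 0. The genes cdc22, suc22, spd1 and ddb1 overlap no other feature of the count table. However, ASM294v3 annotates antisense RNAs with no row in it across all of cdc22, across 30.5 % of suc22, across 18.7 % of csn1, and in 3 stretches of 38.4, 23.3 and 8.26 % of ddb1. Their reads would count with the gene if strand was not used.

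Direct comparisons between agents gave a similar number of calls. For hydroxyurea minus camptothecin (72.6 % of features passed, 36.5 % higher and 36.2 % lower) 3 of the 8 genes were higher, 3 lower and 2 did not pass, and 5 were lower with quantile normalization. The counts were 3, 3 and 2 also for MMS minus camptothecin (all features 38.2 % higher, 38.7 % lower) and for MMS minus hydroxyurea (34.2 % and 39.4 %). For phleomycin minus camptothecin (80 % of features passed, 39.4 % higher and 40.7 % lower) they were 4, 3 and 1. They were 3, 4 and 1 for phleomycin minus hydroxyurea (33.3 % and 37.8 %), and 4, 3 and 1 for phleomycin minus MMS (36.2 % and 35.8 %). Over camptothecin, phleomycin raised suc22 by 2.01-fold (1.01 ± 0.017, adjusted p = 6.51e-53). In the 3 comparisons with phleomycin the gene that did not pass was csn2. The largest gap between agents in cdc22 was hydroxyurea over camptothecin, 2.83-fold (1.503 ± 0.018, adjusted p = 7.27e-60), which 4.95 % of features matched in size.

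Other genes of the pathway were counted in lists chosen with earlier results of these data known. Their counts stand against shares of all tested features that rose and fell of 35.2 and 35.9 % under camptothecin, 40.3 and 38.8 % under hydroxyurea, 39.5 and 40.9 % under MMS and 42.2 and 40.7 % under phleomycin. The lists are small, and many of their counts moved with the scaling or with a single library. Among other cofactors and substrates of the ligase, the gene spd2, which encodes a second regulator of ribonucleotide reductase related to Spd1, rose under all 4 agents, while spd1 fell under hydroxyurea. It stood at 56.1 and 60.2 CPM untreated, 92.2 and 86.7 after camptothecin, 109 and 103 after hydroxyurea, 162 and 153 after MMS, and 173 and 173 after phleomycin. The rises were 0.62 ± 0.042, 0.87 ± 0.041, 1.43 ± 0.040 and 1.57 ± 0.039 in that order, 2.97-fold at the most (adjusted p = 3.91e-43 under phleomycin). Other features share 17.4 % of its span. The replication licensing gene cdt1, a further target of the ligase, rose under hydroxyurea (0.80 ± 0.046) and less under MMS (0.21 ± 0.048) and phleomycin (0.21 ± 0.048), and fell under camptothecin (-0.23 ± 0.049). Under camptothecin epe1 rose more than spd2 (0.86 ± 0.041), though other features share 48.4 % of the epe1 span, and pcn1 fell (-0.14 ± 0.021). Of this list of 4, 2 rose and 2 fell under camptothecin, 3 and 1 under hydroxyurea, 2 and 1 under MMS, and 4 and 0 under phleomycin. The single fall went to 0 under hydroxyurea with upper-quartile factors, library totals and quantile normalization, and under MMS with upper-quartile factors, library totals and the stricter filter.

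Of 9 genes for other cullin partners and for neddylation, which attaches NEDD8 to cullins, 4 rose and 3 fell under camptothecin, 1 and 5 under hydroxyurea, 3 and 6 under MMS, and 4 and 5 under phleomycin. With library totals or upper-quartile factors 3 rose and 2 fell under hydroxyurea. The rises under phleomycin dropped to 2 in 7 alternatives, namely DESeq2, RLE factors, quantile normalization, the 2 groups alone, and without the second untreated or either phleomycin library. The median log2 fold changes were 0.085, -0.18, -0.23 and -0.31. The genes of the NEDD8 proteases fell in each case. For nep1 the changes were -0.62 ± 0.046, -0.84 ± 0.046, -0.23 ± 0.045 and -1.02 ± 0.047 under camptothecin, hydroxyurea, MMS and phleomycin, and for nep2 they were -0.67 ± 0.052, -0.75 ± 0.052, -0.59 ± 0.052 and -1.03 ± 0.053. The gene of the NEDD8-conjugating enzyme, ubc12, rose 2-fold or more under MMS (1.07 ± 0.10, adjusted p = 2.69e-14), from 11.2 and 11.9 to 24.1 and 24.7 CPM. The RING subunit gene rbx1 rose under camptothecin (0.58 ± 0.059) beside ddb1 and pcu4 and fell under MMS (-0.43 ± 0.063) as they did. Of the 4 other signalosome genes 0 rose and 1 fell under camptothecin, 1 and 2 under hydroxyurea, 0 and 3 under MMS and 0 and 3 under phleomycin, and these counts were unsteady. Under hydroxyurea 3 rose and 0 fell with upper-quartile factors and library totals, and 0 rose and 1 fell with quantile normalization. The fall under camptothecin went to 0 without the first untreated or the second camptothecin library and to 2 with quantile normalization, and under phleomycin 1 rose and 1 fell with upper-quartile factors.

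Of 7 tested genes for other steps of deoxynucleotide supply and for the reductants that restore the enzyme, 2 rose and 4 fell under camptothecin, 0 and 5 under hydroxyurea, 4 and 2 under MMS, and 2 and 5 under phleomycin. With library totals or upper-quartile factors 3 rose and 2 fell under hydroxyurea. The rises under camptothecin went to 0 in DESeq2, with library totals, and without the first untreated or the second camptothecin library. The falls under phleomycin went to 3 with upper-quartile factors, library totals and the stricter filter, and to 2 with quantile normalization. The dUTPase gene dut1 had at most 2 counts in a library and was not tested; other features cover 100 % of its span. Under MMS the rises were those of trr1, the thioredoxin reductase gene (1.83 ± 0.027, 143 and 143 to 506 and 512 CPM), hal3, whose protein carries thymidylate synthase (0.95 ± 0.033), grx1 of glutaredoxin (0.78 ± 0.033) and trx1 of thioredoxin (0.41 ± 0.015). The trr1 value is uncertain because 58.5 % of its span is shared with another feature. With hydroxyurea trx1 fell instead (-0.53 ± 0.015, adjusted p = 3.5e-39), and hal3 was at 0.023 ± 0.034 (adjusted p = 0.533). Levels of ndk1 were 83.8 and 86.6 CPM untreated and 162.5 and 159.8 after phleomycin. Other features share 91.4 % of the span of tmp1, 83.3 % of ndk1 and 53.4 % of dcd1, so the counts of this list are also uncertain.

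Of 7 genes of MBF and its regulators 3 rose and 3 fell under camptothecin, 6 and 1 under hydroxyurea, 4 and 2 under MMS, and 4 and 1 under phleomycin. The fall under hydroxyurea went to 0 with upper-quartile factors, library totals and the stricter filter and without the first untreated or the first hydroxyurea library, and the falls under MMS went to 1 with library totals. The median log2 fold change was 0.33 under hydroxyurea, where that of all features was 0.023, and -0.092 under camptothecin. The gene of the repressor Yox1 rose under hydroxyurea (1.03 ± 0.050, adjusted p = 1.14e-27) and MMS (0.79 ± 0.051), and cdc10, the gene of a core MBF subunit, rose most under MMS (0.88 ± 0.037, adjusted p = 2.23e-31). Under camptothecin rep2 (-0.74 ± 0.044), nrm1 (-0.41 ± 0.039) and res1 (-0.25 ± 0.035) fell. After phleomycin nrm1 stood at 66.6 and 67.8 CPM, against 107.7 and 112.1 untreated. There whi5 stood at 15.3 and 14.6 CPM, against 6.03 and 6.62 untreated. Among 5 genes of the replication checkpoint 2 rose and 1 fell under camptothecin and 1 rose and 2 fell under each other agent. Under hydroxyurea this turned to 2 rises and 0 falls with upper-quartile factors and library totals, and to 0 rises and 1 fall with quantile normalization. Under phleomycin it turned to 2 rises and 1 fall with upper-quartile factors, and 1 fell with quantile normalization. The rises under camptothecin went to 1 without the first untreated or the first camptothecin library. Levels of rad3 were 113 and 114 CPM untreated, 182.6 and 183.3 after camptothecin, and lower than untreated after MMS, at 88.2 and 79.7. The kinase gene cds1 rose under MMS (0.91 ± 0.048, adjusted p = 9.72e-26), from 50.3 and 51.7 to 98.8 and 92.5 CPM, and was at 0.093 ± 0.050 under hydroxyurea (adjusted p = 0.0853). Other features share 48.9 % of its span, 66.3 % of that of rad3, 57.9 % of chk1, 100 % of mrc1 and 3.26 % of rad26. The levels of mrc1 ran only from 0.078 CPM (first untreated library) to 0.557 CPM (second camptothecin library). That mrc1 did not pass therefore tells little, and the counts of this list are uncertain.

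Genes with such boxes moved in both directions. Among the 133 tested genes with at least 1 ACGCGT in the 300 bases upstream, 44.4 % rose under camptothecin, 45.1 % under hydroxyurea, 52.6 % under MMS and 45.9 % under phleomycin, against 34.5, 34.4, 35.7 and 37.6 % of 4569 tested genes with none. The share was thus higher under all 4 agents, camptothecin included, under which cdc22 and cdt2 moved by 0.063 and 0.11. Of the 14 tested genes with 2 or more, cdc22 and cdt2 included, 5 rose, 5 fell and 4 did not pass under hydroxyurea, and 8 rose, 4 fell and 2 did not pass under MMS. Under camptothecin 6 rose, 5 fell and 3 did not pass, and under phleomycin 5 rose, 6 fell and 3 did not pass. These groups were formed from sequence alone but after the values had been seen, and no test was made.

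Genes with the pattern most like cdc22, suc22, spd1 and cdt2 were ranked by the root mean square difference of log2 CPM, each gene centred on its mean of 10 libraries, among 3571 other protein-coding genes with a symbol and 10 CPM or more. Nearest to cdc22 were tos4 (0.0976), gcd1 (0.177), yox1 (0.219), wtf11 (0.244) and cig2 (0.276), and cdt2 came 17th in that order at 0.34. The spread of cdc22 itself over the libraries was 0.677 (SD, log2). Nearest to cdt2 were amt1 (0.122), wtf11 (0.137), dao1 (0.151), rec6 (0.183) and hsp3104 (0.184). Nearest to suc22 were lys3 (0.0575), pgk1 (0.0923), pho2 (0.0924), rib3 (0.0965) and swc3 (0.106), with csn1 the closest of the 8 genes at 0.242 and cdc22 far down at 0.71. Nearest to spd1 were fim1 (0.151), pep12 (0.171), gpx1 (0.175), fsc1 (0.18) and fsv1 (0.182), none of them as close as the best matches of the other 3. Members of the wtf family have near copies, so wtf11 is uncertain.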

How the data were processed

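RNA-seq of total RNA (TRIzol) gave 10 libraries, 2 per group. The authors deposited raw read counts per feature, 1 column per library; HISAT2 and StringTie are named per the submitters' processing notes, while their versions and roles, the genome build, the annotation and the strand setting of the counting are not stated. IDs were matched to RefSeq ASM294v3 (6540 by locus tag, 11 by synonym, 110 unmatched). After filterByExpr, the quasi-likelihood test of edgeR 4.0.16 ran under R 4.3.3 with TMM factors from 0.944 to 1.09, in 1 model of the 5 groups with 5 residual degrees of freedom. Tests were two-sided, with Benjamini-Hochberg adjustment over the 5734 features of a comparison. Each SE was derived from the fold change and its F statistic. The code was tested on simulated data.

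At 37301356 to 48598533 counts per library, counting error is small for 6 of the 8 genes; csn1 and csn2 had 461 to 898 counts. There were no molecular identifiers, so read counts overstate the number of independent molecules. Replicates differed by more than counting noise (chi-square per feature 3.36 to 3.72). The square root of the common dispersion was 2.21 %. Correlations of replicate differences between groups were -0.0527 to 0.037, so little effect was shared by libraries of the same replicate number. The labels do not say what a replicate number marks.

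Ratios used annotated exon lengths. The 8 genes were tested in every comparison. Of each pathway list the text names only some members, not always those with the smallest adjusted p. It also names the 5 nearest genes in pattern. Members and lists were chosen with earlier results of these data known. Alternatives were DESeq2 1.42.0, RLE, upper-quartile and library-total scaling, quantile normalization with limma 3.58.1, no filter, a filter of 10 CPM in 2 libraries, a replicate block, fits of the 2 groups compared and leaving out each library. A detail of csn2 is not reported here.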

Additional observations from a re-analysis of the deposited data

How the results depend on the processing

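The number of the 8 genes called stayed within 1.5 times the main count in all 10 comparisons under every alternative. Gains could not leave this band, as most of the 8 genes already passed. The number that fell moved further. Under hydroxyurea it went from 2 to 1 (upper-quartile factors, library totals) or 4 (quantile normalization). Under phleomycin it went from 3 to 1 (upper-quartile factors), and for hydroxyurea minus camptothecin from 3 to 5 (quantile normalization). Of 1520 recomputed fold changes of these genes, 1482 kept their direction and side of the threshold or passed in neither fit, 23 lost the call, 11 gained it and 4 reversed. The reversals were ddb1 under phleomycin with upper-quartile factors (0.0981) and quantile normalization (0.111), and csn1 under hydroxyurea (-0.29) and MMS (-0.216) with quantile normalization; the cause was not tested. Leaving out a library changed 11 of the values. Among pathway genes, 8 of 1615 values reversed. These were csn5 (0.0016), uba3 (0.00051) and csn4 (0.104) under hydroxyurea with library totals, csn4 with upper-quartile factors (0.0817) and quantile normalization (0.0441), pcn1 under hydroxyurea (0.0204) and trx1 under phleomycin (0.0063) with quantile normalization, and csn71 under phleomycin with upper-quartile factors (0.02995).

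Replicate differences were hardly correlated between groups, and the labels do not say what a replicate number marks. With a replicate block cdc22 under camptothecin (0.063, adjusted p = 0.114) and suc22 for hydroxyurea minus camptothecin (0.0411, adjusted p = 0.314) were no longer past the threshold, and no other call of the 8 genes changed. The ratio of cdc22 to suc22 in raw counts, not divided by length, was 0.692 in untreated cells, 0.579 with camptothecin, 1.59 with hydroxyurea, 1.17 with MMS and 0.404 with phleomycin, a constant factor above the ratio per base. The 5-letter core ACGCG on either strand stood in 10.6 % of windows of 300 bases, against 2.9 % for ACGCGT. Low counts limit csn1 and csn2, whose SE was near 0.1.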
